A study of Chlorocebus sabaeus with 32 samples.

Results

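Cytosolic ribosomal protein genes encode the proteins of the ribosome in the cytosol. In hippocampal RNA of young vervet monkeys (Chlorocebus sabaeus), 67 of 33994 gene rows carried a symbol of this family: 27 encode proteins of the small, 40S subunit, 37 encode proteins of the large, 60S subunit, and 3 (RPLP0, RPLP1 and RPLP2) encode the acidic stalk of the 60S subunit. Rows were chosen by symbol alone: RPL or RPS with a number and an optional A, RPLP0 to RPLP2, and RPSA. No measured value decided which rows of the family entered, but the family was chosen with earlier results of these data known. All 67 passed the filter on low counts in every comparison. A reference gene table holds 75 such symbols. A further 4 of them stood in the count table under a gene number only (RPS15A, RPS3A, RPL7A and RPS26) and were kept out of the 67, and RPL10, RPL18, RPL3 and RPL39 were not analysed here.

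The ribosome translates every mRNA, and its proteins are made in matched amounts, 1 set for each ribosome. Their mRNAs begin with a terminal oligopyrimidine (TOP) motif, through which the kinase mTOR and the RNA-binding protein LARP1 adjust their translation together, and they share this motif with many translation factors. In the brain, dividing progenitors and newborn neurons grow quickly and are known for a high demand for ribosomes. The genome of primates also holds many processed copies of ribosomal protein genes, so a read from such an mRNA can match several places, and counters of uniquely placed reads then leave it out of the gene. The levels below are therefore uncertain for members with near-identical copies.

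Total RNA of 32 hippocampi was depleted of ribosomal RNA and made into strand-preserving libraries, and reads were counted per gene. Every library carries the same age class, under 1 yr, and no treatment, genotype, sex or sequencing date, so the 32 form a single group and each was taken as 1 animal. Titles begin with 4 digits, ending in 09 in 14 libraries (title set A), in 10 in 16 (set B) and in 11 in 2 (set C). The labels do not say what these digits mean. A further number in the titles lies below 20000 in 21 libraries (all 14 of set A and 7 of set B) and above it in 11 (9 of set B and both of set C). Libraries are numbered 1 to 32 in order of deposition, as names only, and p-values measure the spread between these libraries.

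Counts in genes ran from 9347635 to 19673621 per library. The share of reads outside every annotated feature was 57.0% ± 3.61 (SD, n = 32), from 51.3% to 67.1%. Reads with several alignments, called non-unique here, had a share of 8.90% ± 1.13, from 6.38% to 11.1%. Both shares are taken over all reads, whereas a member's level is taken over reads in genes. They moved against each other (Pearson r = -0.81, Spearman rho = -0.80 over the 32 libraries, which share both denominators, given as a description). Markers of hippocampal neurons were present in every library, with a summed level of 2228 to 5145 CPM (counts relative to the library's counts in genes), whereas the 3 rows found for the blood list summed to at most 0.842 CPM.

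The 67 genes together took 3866 ± 438 CPM (SD, n = 32), from 3074 in library 18 to 4755 in library 29, a range of 1.55-fold. They held 0.387% ± 0.0465 of the counts in genes and 0.132% ± 0.0219 of all reads in the table. By title set the sum was 3694 ± 321 CPM in A (n = 14; lowest 3080, median 3748, highest 4231) and 3918 ± 437 in B (n = 16; lowest 3074, median 3992, highest 4755). The libraries of set C stood at 4612 and 4715 CPM. The ranges of sets A and B overlapped, and the 3 highest sums were those of library 29 and of both set C libraries. Within set B, the 7 libraries with title numbers below 20000 had a sum of 3654 ± 483 CPM and the 9 above it 4123 ± 274.

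Single members spanned a wide range of read levels. The median over the 67 mean levels was 39.7 CPM (49.0 for the 40S members, 39.5 for the 60S members, 34.6 for the stalk). CPM are not divided by transcript length, for which no table was at hand, so their order shows how many reads a gene received and not how many molecules it had. The most reads went to RPLP0, the base of the stalk that holds RPLP1 and RPLP2 (215 ± 45.6 CPM, from 138 to 325), and to RPS6, the 40S protein phosphorylated downstream of mTOR (203 ± 25.6, from 156 to 265). RPL15 had 161 ± 18.6 CPM (123 to 198) and RPS14 had 153 ± 21.1 (116 to 185). At the other end stood RPL36A with 2.54 ± 0.436 CPM (1.60 to 3.37), RPS10 with 2.58 ± 0.365, RPL29 with 2.80 ± 0.505, RPL32 with 2.87 ± 0.439 and RPS13 with 3.68 ± 0.630. RPSA, the 40S protein also known as the laminin receptor, had 70.5 ± 14.4 CPM, RPLP1 had 34.6 ± 5.43 and RPLP2 had 9.95 ± 1.07.

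**Figure D1:**
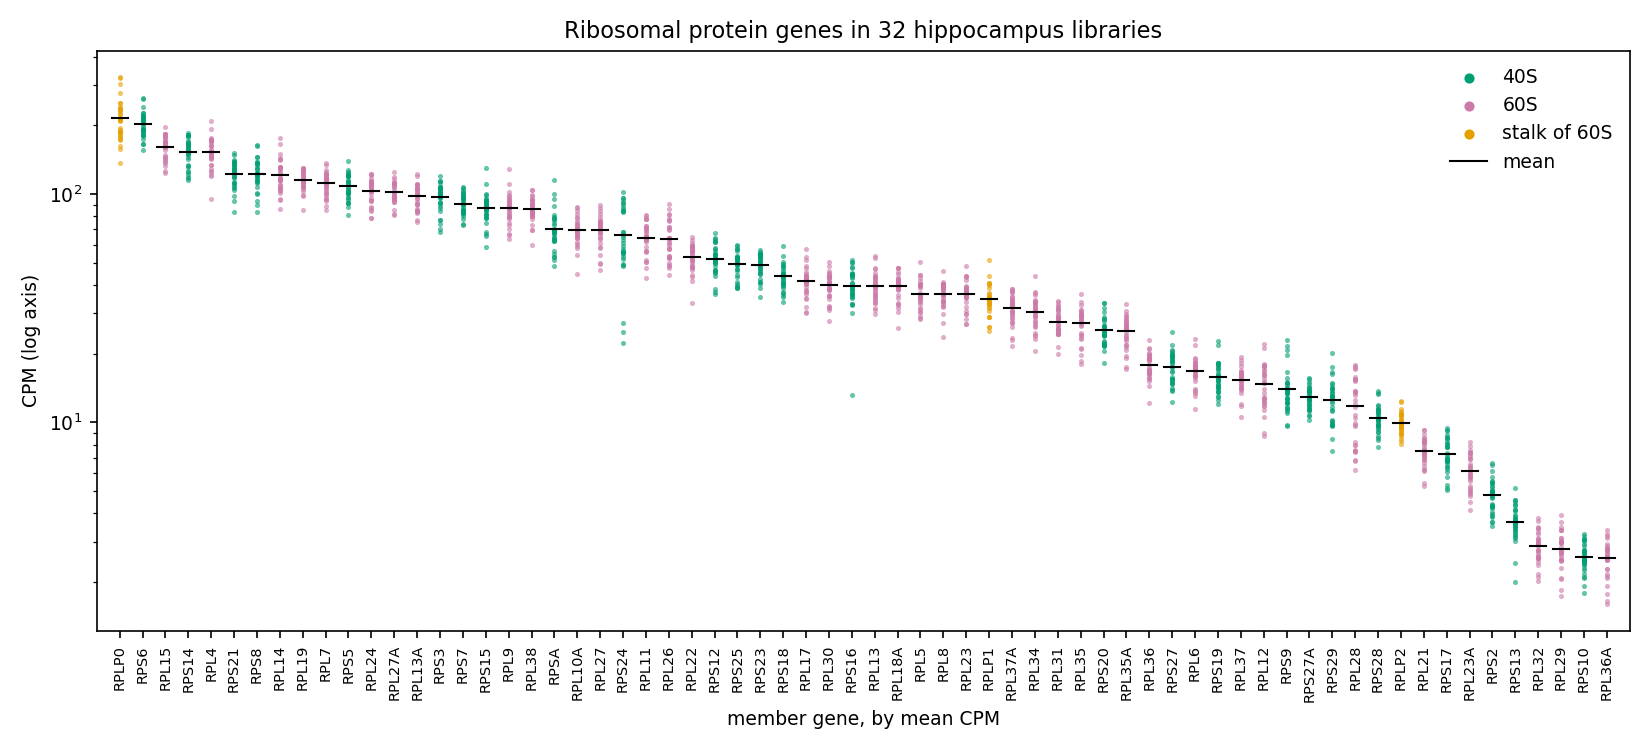
CPM (log axis) of 66 of the 67 ribosomal protein genes in the 32 libraries (points), coloured by ribosomal subunit, with the mean as a black bar. Mean levels run from 215 CPM for RPLP0 to 2.54 CPM for RPL36A; RPS24 splits into 3 bands and RPS16 has 1 low library.

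Of the 67 members, 10 had a mean below 10 CPM, and their counts in single libraries ran from 17 to 204. Their spread was near that of counting alone. RPS10 had a coefficient of variation of 14.1%, where counting alone would give 15.5%, and RPL36A had 17.1% against 15.7%. Among members of at least 10 CPM the part of counting depended on the level: RPL10A (69.6 CPM) varied by 13.2%, where counting alone gives 2.98%, and RPS27A (12.9 CPM) by 11.1%, where it gives 6.95%. Of the 4 rows under a gene number, RPS15A (95.5 ± 13 CPM), RPS3A (89.4 ± 12.3) and RPL7A (35.2 ± 3.94) had mean levels within the members' range, and RPS26 (0.153 ± 0.101) lay below that of every member. With them added, the family summed to 4087 CPM.

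The spread of each gene over the libraries was set beside that of other genes of equal level. The measure was edgeR's biological coefficient of variation (BCV), an estimate of the spread left after counting noise. Each gene's estimate is drawn toward the trend over all genes, and was then divided by the trend's value at the same level. The median of this ratio was 0.817 over the 67 members and 0.804 over all 19959 genes past the filter. A ratio above 1 was found for 11 of 67 members (16.4%) and for 28.8% of all genes. Ranked by SD of log2 CPM among the 200 genes nearest in level, the median member lay above 54% of them. As a description, the typical ribosomal protein gene was about as variable as the typical gene of its level.

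Few members stood above the trend, and RPS24 stood farthest. RPS24, a 40S protein needed for maturation of the small subunit, had a ratio of 2.12 (BCV 0.334) and a spread above that of 99.5% of its 200 nearest genes. Its levels fell into 3 bands: 22.2 to 27.3 CPM in libraries 15, 21 and 13, then 48.6 to 68.6 CPM in 18 libraries, then 83.1 to 102 CPM in 11. The empty stretch below the middle band took 26.5% of the whole range and that above it took 18.2%. The lowest library still had 389 counts of RPS24, so counting noise is small beside these steps. All 3 bands held libraries of set A and of set B, with means of 66.4 ± 20.3 and 65.5 ± 24.2 CPM, and both set C libraries (65.2 and 66.5 CPM) lay in the middle band. These bands were noticed in the values after the fact and carry no test.

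RPL28, a 60S protein, followed with a ratio of 1.49, a spread above 92.5% of its neighbours and levels from 6.19 CPM in library 23 to 17.8 CPM in library 8. RPS16, a 40S protein (ratio 1.25), had 13.2 CPM in library 32, of set C, where the other 31 libraries had 30.3 to 51.6. That gap took 44.5% of the whole range. Library 32 also had the lowest level of RPL8 (23.6 CPM) and of RPS28 (7.79 CPM), while its levels of RPLP0, RPS6 and RPL4 were the highest of all. RPLP0 (ratio 1.25) and RPSA (1.21) completed the 5 most variable members. The least variable against the trend were RPS10 (0.29), RPL32 (0.39), RPL36A (0.42), RPLP2 (0.47) and RPL29 (0.52), all below 10 CPM.

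**Figure D2:**
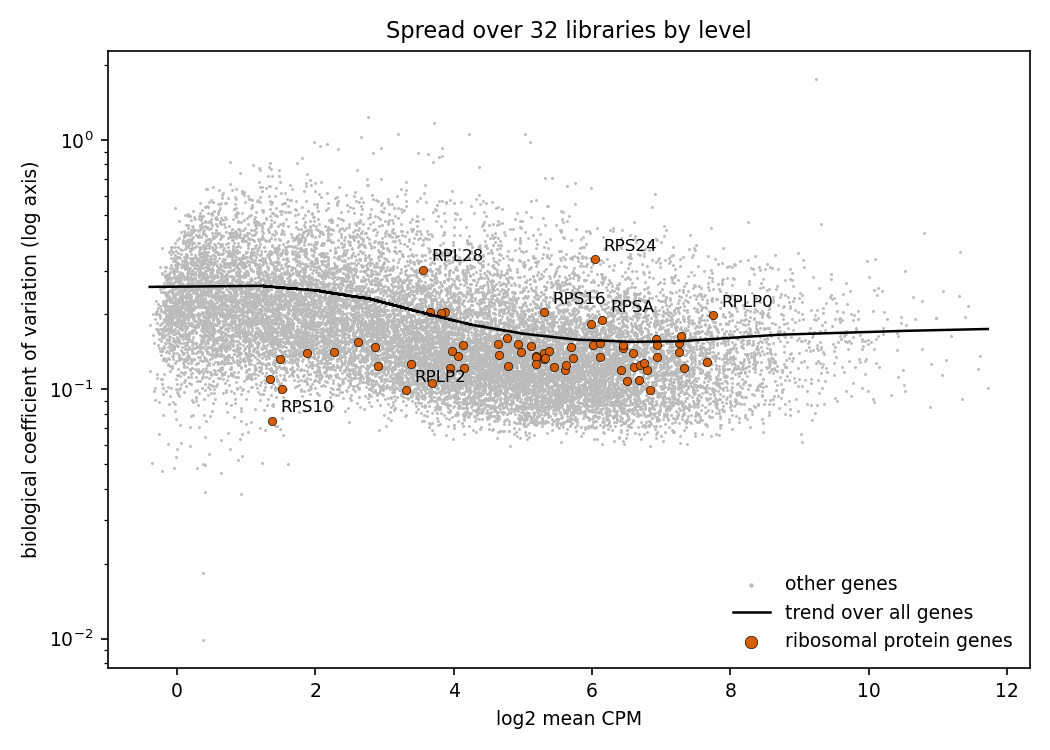
Biological coefficient of variation over the 32 libraries (log axis) against log2 mean CPM for 19959 genes (grey), with the trend (line) and the 67 ribosomal protein genes (orange). Most members lie below the line; RPS24, RPL28, RPS16, RPLP0 and RPSA lie above it.

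Levels of the members moved together across libraries. Over all pairs of the 67, the median Pearson r of log2 CPM was 0.53 (from -0.30 to 0.93), against 0.011 over pairs of the 16327 genes at or above the lowest member's mean. The closest pair was RPL7 with RPS25 (r = 0.93). Among the 57 members of at least 10 CPM the median r was 0.62, and among the 10 below it was 0.11. RPL24 went most closely with the rest (median r with the other members 0.75), while RPL28 (-0.07), RPS10 (-0.02), RPL32 (0.03), RPS16 (0.13) and RPS24 (0.22) were among those that went with it least. The median over pairs was 0.44 within set A and 0.60 within set B. These correlations are descriptions over libraries that share their depth and scaling.

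Members were lower in libraries with more reads outside features. In edgeR's quasi-likelihood test of a slope against the no-feature share, 48 of 67 members fell and 0 rose (Benjamini-Hochberg adjusted p under 0.05), where 24.7% of all 19959 genes fell and 20% rose. The median slope was -0.11 log2 units per SD of the share (3.61 percentage points), against -0.0072 over all genes, and 65 of 67 slopes were below 0. By subunit, 29 of 37 members of the 60S subunit, 17 of 27 of the 40S subunit and 2 of 3 stalk members fell. All 57 members of at least 10 CPM had a slope below 0 and 46 of them passed the test, against 2 of the 10 lower ones.

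The steepest slope was that of RPL27, a 60S protein. It had a lowest, median and highest level of 46.3, 71.3 and 89.3 CPM, and 81.8 CPM in library 31, which had the smallest share, against 57.9 CPM in library 1, which had the largest. Its slope was -0.17 ± 0.027 (SE; adjusted p = 3.45e-06 in edgeR's quasi-likelihood test), or 0.887 times the level per SD. RPL11, the 60S protein that binds MDM2 when ribosome assembly fails, had 43.0, 64.9 and 80.8 CPM and a slope of -0.17 ± 0.027 (edgeR adjusted p = 5.08e-06). RPL12, part of the stalk base, had 8.69, 14.9 and 22 CPM and a slope of -0.17 ± 0.049 (edgeR adjusted p = 0.00484). RPL4 had 94.7, 152.5 and 209 CPM, with its lowest value in library 1, and a slope of -0.17 ± 0.029 (edgeR adjusted p = 2.06e-05). RPL10A had 44.6, 69.3 and 87.5 CPM, again lowest in library 1, and a slope of -0.17 ± 0.021 (edgeR adjusted p = 2.04e-07).

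Of the stalk members, RPLP1 fell by 0.12 ± 0.034 per SD (edgeR adjusted p = 0.00451). RPLP0 fell by 0.12 ± 0.049 (edgeR adjusted p = 0.0437), a call that was lost without library 1 (slope -0.076, edgeR adjusted p = 0.233) and in 13 other single left-out libraries. RPLP2 had a slope of -0.0060 ± 0.030 and RPSA one of -0.073 ± 0.048, and neither passed. RPS2 and RPL32, 2 members below 10 CPM, had the only slopes above 0 (0.0044 and 0.0026).

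The slopes were then taken with the title set in the fit and within each set. With the title set as a further term, 43 members fell, where 25.4% of all genes fell. Within set A alone 27 members and 21.5% of all genes fell, and within set B alone 23 members and 12.5% of all genes fell. In set B the no-feature share was 59.1% ± 3.01 for title numbers below 20000 (n = 7). It was 55.2% ± 2.71 for those above (n = 9). The number set was not a term in these fits, so its part in the set B slopes was not tested. In a test of whether the slope differed between sets A and B, 0 members and 0% of 20037 genes passed in edgeR in either direction, with 3 members and 2014 genes at an unadjusted p under 0.05. The summed level ran against the share with r = -0.66 (rho = -0.64) over 32 libraries, -0.60 without libraries 1 and 17, which lie farthest from its median, -0.86 within set A and -0.58 within set B. The number of counts in genes moved with the sum in set A (r = 0.74, n = 14) and less so in set B (r = 0.24, n = 16), and its part in the slopes was not tested.

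The scaling of libraries bears on this count. The scaling factors (trimmed mean of M-values, TMM) ran from 0.942 to 1.14 and moved with the no-feature share (r = 0.71). With library totals alone, 24 members and 15.4% of all genes fell and 0 members rose. Of all calls over all genes, 44.7% were rises with TMM and 65.2% with totals alone. The members' median less the median over all genes was -0.099 with TMM and -0.098 with totals.

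**Figure D3:**
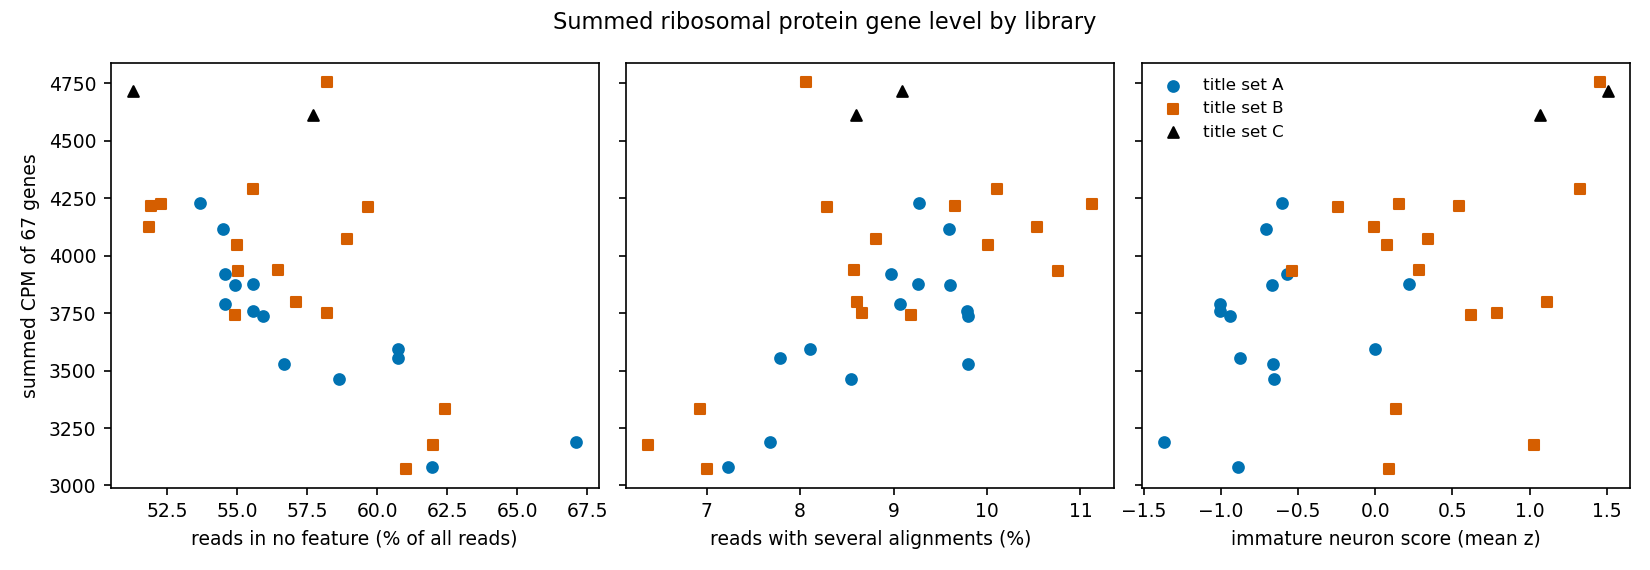
Summed CPM of the 67 ribosomal protein genes in each library against the share of reads in no feature (left), the share of reads with several alignments (middle) and the immature neuron score, a mean of z-scores described further on (right); shape and colour give the title set. The sum falls from left to right in the first panel (r = -0.66) and rises in the others (r = 0.53 and 0.48), with library 29 and both set C libraries highest.

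Members were higher in libraries with more non-unique reads. In edgeR's slope test, 39 of 67 rose and 0 fell, where 12.7% of all genes rose and 10.1% fell, with a median slope of 0.095 log2 units per SD (1.13 percentage points) against 0.0047 over all genes. By subunit, 25 of 37 of the 60S, 14 of 27 of the 40S and 0 of 3 stalk members rose. RPL27 again had the largest slope (0.18 ± 0.026, edgeR adjusted p = 9.64e-05). RPS16 had 39.1 CPM as its median and a slope of 0.16 ± 0.046 (edgeR adjusted p = 0.0134). RPS3, a 40S protein at the mRNA entry of the ribosome, had 68.3, 98.6 and 120 CPM as lowest, median and highest and a slope of 0.13 ± 0.029 (edgeR adjusted p = 0.00181). RPL37A and RPL31 had slopes of 0.13 ± 0.031 and 0.13 ± 0.025 (edgeR adjusted p = 0.00291 and 0.000727).

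The 2 shares, which moved against each other (r = -0.81), picked largely the same members in fits that use the same 32 libraries. Here 36 members both fell with the no-feature share and rose with the non-unique share. That is 75% of the members that fell and 92.3% of those that rose. The same overlap was not counted over all genes, so it is no result about the family. With both shares in a single fit, 19 members and 20.4% of all genes fell with the no-feature share, while 0 members and 0.501% of all genes rose with the non-unique share in edgeR (5 members at an unadjusted p under 0.05). With the title set as a further term 43 rose with the non-unique share, where 15.1% of all genes did. Within set B alone 15 members and 4.65% of all genes rose. There the non-unique share was 8.08% ± 1.36 for title numbers below 20000 (n = 7). It was 9.57% ± 1.10 for those above (n = 9), and the part of the number set was not tested. Within set A alone 0 of 67 members and 0 of 19657 genes passed in edgeR in either direction (27 members and 5382 genes at an unadjusted p under 0.05). Without libraries 25 and 24, which lie farthest from the median share, 18 members and 9.63% of all genes rose, and without library 25 alone 20 members and 9.72% of all genes rose. Without library 9 or library 18, 25 members rose, where 10.5% and 11.2% of all genes did. No slope differed between the title sets in edgeR's test (0% of 20037 genes in either direction; 0 members and 1321 genes at an unadjusted p under 0.05). With library totals alone 12 members and 7.1% of all genes rose and 0 members fell, and the share of rises among all calls went from 55.7% to 33.5%. The summed level had r = 0.53 (rho = 0.49) with the non-unique share, 0.46 without libraries 25 and 24, 0.72 within set A and 0.61 within set B.

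By title set, 5 members were higher in set B than in set A and 0 were lower in edgeR's test, where 6.71% of 23977 genes were higher and 5.67% lower. For 67 members the share higher (5 of 67) is near this background, so it is no result about the family. Without library 18, of set B, 8 members and 7.55% of all genes were higher. The median difference over the members was 0.065 log2 units, against -9.2e-05 over all genes. RPLP0, RPS2, RPSA and RPL13 were among them.

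RPLP0 had a lowest, median and highest level of 138, 183 and 215 CPM in set A (mean 182 ± 21.3) and of 173, 233 and 324 CPM in set B (mean 232 ± 35.7), with 303 and 325 CPM in the set C libraries. The groups overlapped, and 15 of the 16 libraries of set B lay above the set A median. The difference was 0.35 ± 0.070 log2 units (SE; adjusted p = 0.00187 in edgeR's quasi-likelihood test). RPS2, a 40S protein near the entry of the mRNA channel, had 3.52, 4.16 and 5.52 CPM in set A and 4.24, 5.14 and 6.65 CPM in set B, where all 16 lay above the set A median. It differed by 0.33 ± 0.073 (edgeR adjusted p = 0.00385). RPSA had 48.5, 62.7 and 69.8 CPM in set A and 56.5, 73.8 and 116 CPM in set B, with 15 of 16 above the set A median, and differed by 0.32 ± 0.075 (edgeR adjusted p = 0.00579).

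RPL13, a 60S protein, had means of 36.1 ± 3.47 CPM in set A and 41.5 ± 5.18 in set B and differed by 0.20 (edgeR adjusted p = 0.0257). Of the 16 libraries of set B, 14 lay above its set A median. The title number is tied to the title set, since all libraries of set A have numbers below 20000. With the number set as a further term, 1 member and 3.3% of all genes were higher in set B (RPLP0, 0.30, edgeR adjusted p = 0.0382) and 1 member and 2.1% of all genes were lower (RPS21, -0.27, edgeR adjusted p = 0.0337), and the median over the members turned to -0.041, with 45 of 67 below 0. Among the 21 libraries with numbers below 20000, RPLP0 alone passed (0.31, edgeR adjusted p = 0.041), with a median over the members of -0.038. Of all calls, 54.2% were higher in set B with TMM and 70.1% with totals alone, which called 7 members higher and 0 lower.

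**Figure D4:**
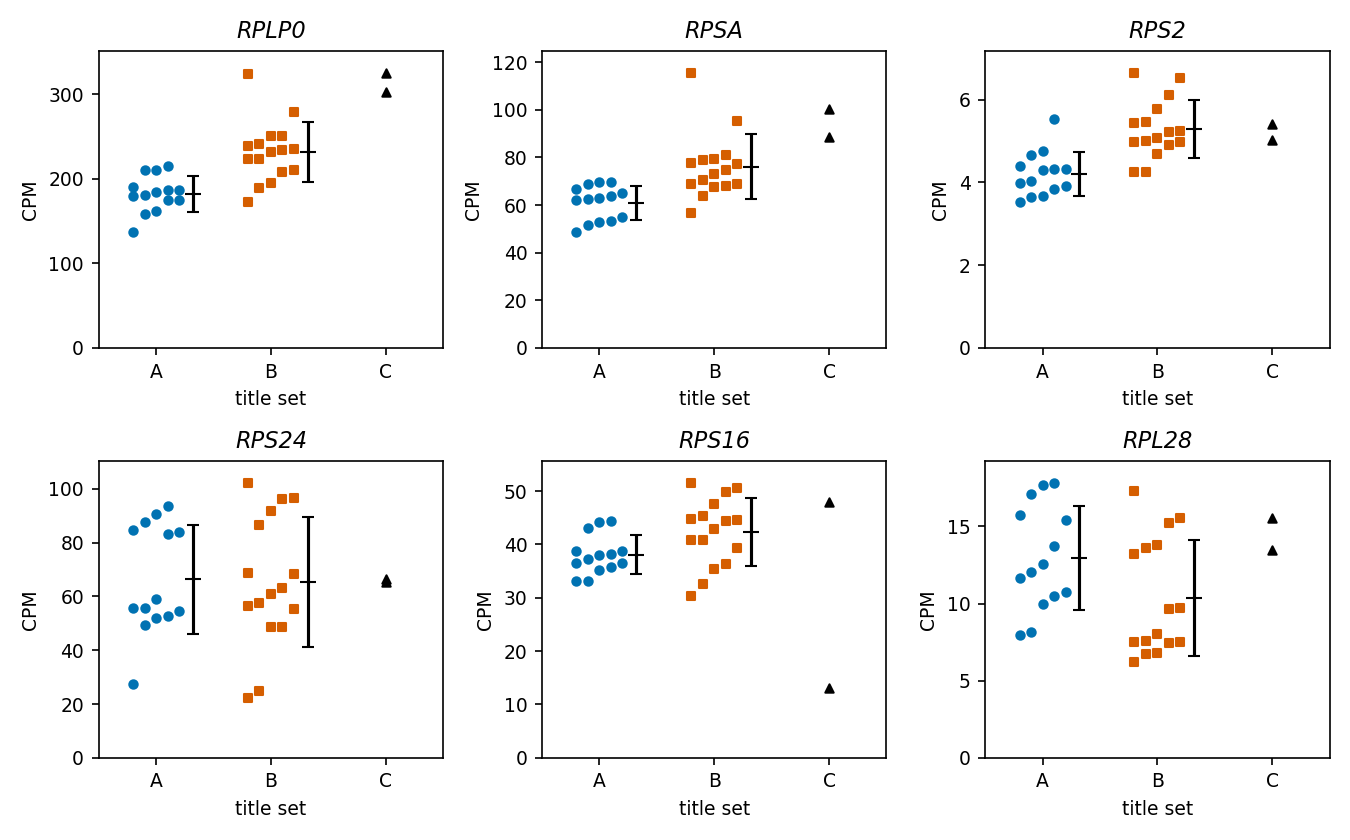
CPM of RPLP0, RPSA, RPS2, RPS24, RPS16 and RPL28 in each library by title set (14 libraries of set A, 16 of B, 2 of C; points are spread sideways for sight), with mean ± SD for A and B in black. RPLP0, RPSA and RPS2 sit higher in set B with overlap, RPS24 shows 3 bands in sets A and B, and RPS16 has 1 low library at 13.2 CPM.

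RPLP0 and RPSA also had the largest slopes with a score of immature neurons. The immature neuron score was taken as the mean z-scored log2 CPM of 11 genes that mark newborn neurons (among them DCX, a microtubule protein of migrating neurons, and the transcription factors SOX4 and SOX11), none of them a member. It ran from -1.37 to 1.5, with means of -0.70 ± 0.40 in set A and 0.45 ± 0.57 in set B, so it is largely tied to the title set, and 10 of its 11 genes were higher in set B. It had r = -0.18 with the no-feature share. In bulk tissue, a larger number of immature neurons and more RNA per cell cannot be told apart.

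With this score 20 of 67 members rose and 0 fell in edgeR's test, where 16.4% of all genes rose and 15.3% fell. The median slope was 0.049 log2 units per SD of the score, against 0.0023 over all genes. RPLP0 had the largest slope (0.25 ± 0.028, edgeR adjusted p = 2.21e-08), followed by RPSA (0.22 ± 0.031, edgeR adjusted p = 1.31e-06). RPS2 had 0.16 ± 0.036 (edgeR adjusted p = 0.000848). RPL12 had 0.15 ± 0.047 (edgeR adjusted p = 0.0131), which was lost without library 31 (0.12, edgeR adjusted p = 0.0545). RPLP1 had 0.086 ± 0.036 (edgeR adjusted p = 0.0619) and RPLP2 0.012 ± 0.030, so neither partner of RPLP0 in the stalk passed. RPLP1 passed without any 1 of libraries 10, 12, 14, 16 or 25.

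All 5 members higher in set B were among these 20 (25% of them), in fits that use the same libraries. The same overlap was not counted over all genes, so it is no result about the family. The score is also largely tied to the title set. Of the 20, 15 also fell with the no-feature share (75% of the 20, 31.25% of the 48), while RPL14, RPS19, RPS2 and RPSA were among those that did not. Over all 67 members 48 fell, a similar share, so this overlap shows no link between the 2 sets of calls. With the title set as a further term 2 members rose, where 4.86% of all genes did: RPLP0 (0.20, edgeR adjusted p = 0.00418) and RPSA (0.18, edgeR adjusted p = 0.0221). As a count, 2 of 67 is not above that share, so it is no result about the family. Within set A alone 0 members passed in edgeR (1 at an unadjusted p under 0.05; 0.376% of all genes rose), and within set B alone 0 passed (4 at an unadjusted p under 0.05; 2.01% of all genes rose). Without libraries 31 and 29, which lie farthest from the median score, 8 members rose and 2 fell, where 12.1% and 12.5% of all genes did. The 2 that fell were RPS21 (-0.091, edgeR adjusted p = 0.0396) and RPS28 (-0.093, edgeR adjusted p = 0.0391). For 67 members the 8 that rose are near the share over all genes, so in this fit they are no result about the family. No slope differed between the title sets in edgeR's test (0% of 20037 genes in either direction; 0 members and 1308 genes at an unadjusted p under 0.05). With library totals alone 27 members and 20.1% of all genes rose and 0 members fell. The summed level had r = 0.48 with the score over all libraries (rho = 0.45), 0.31 without libraries 31 and 29, 0.35 within set A and 0.17 within set B.

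**Figure D5:**
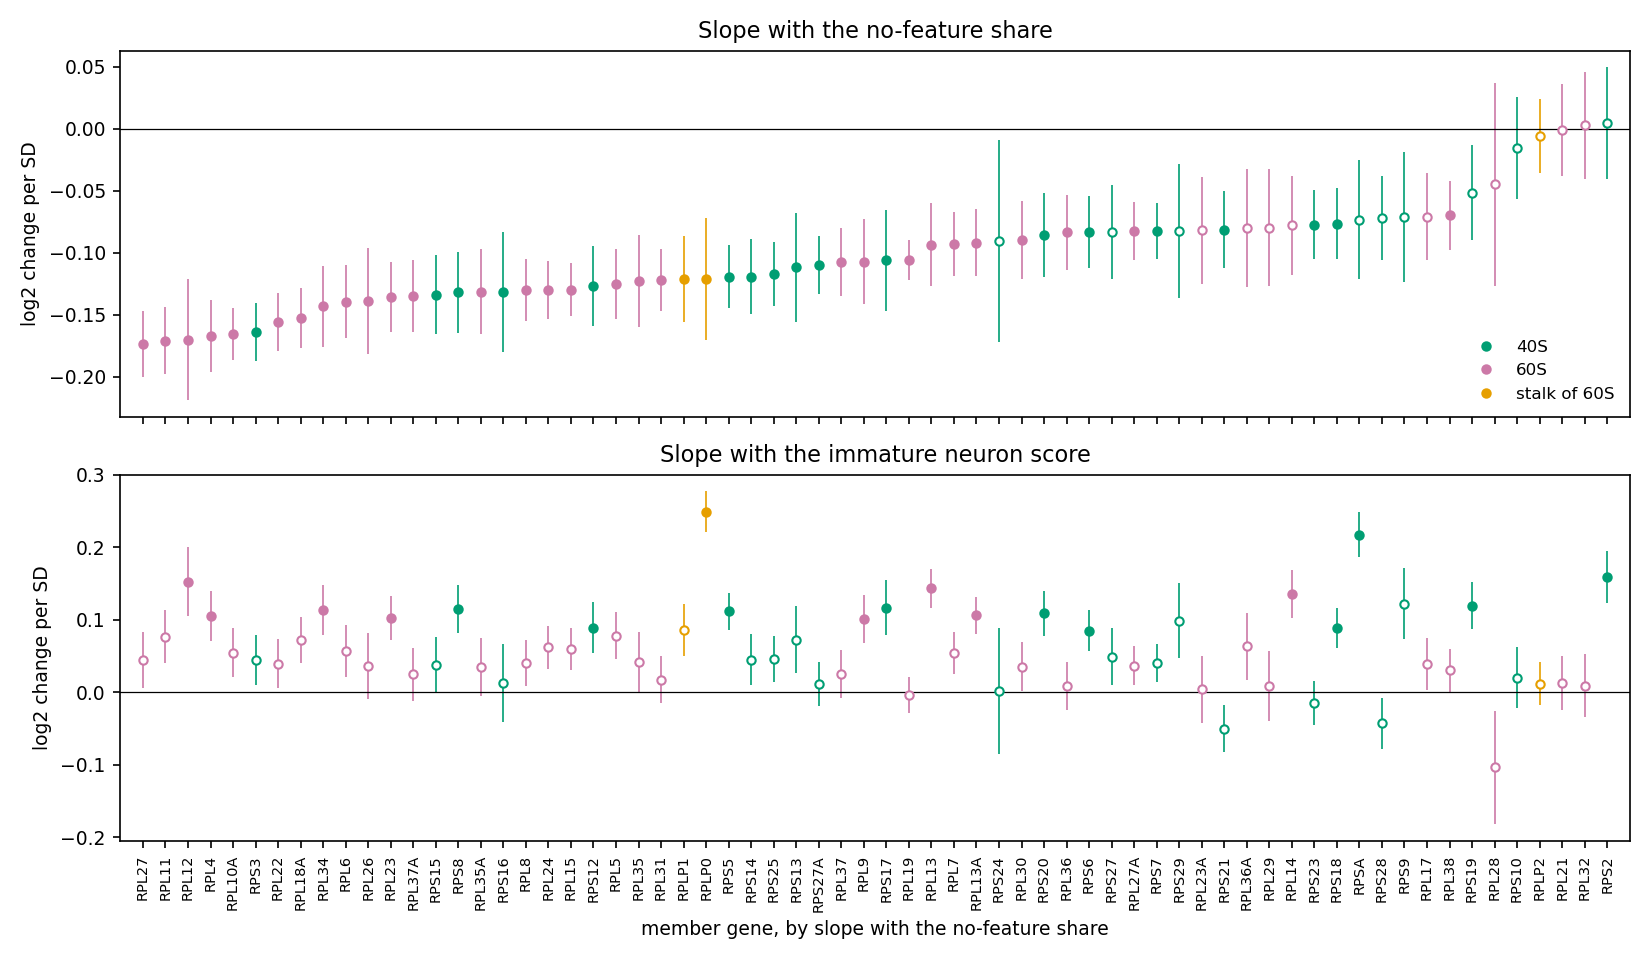
Slope of 66 of the 67 ribosomal protein genes, in log2 units per SD, with the share of reads in no feature (top) and with the immature neuron score (bottom), in the same gene order; bars are SE, colours give the subunit, and filled points passed an adjusted p of 0.05 in edgeR. In the top panel 48 members are filled and all of those lie below 0; in the bottom panel 19 are filled, led by RPLP0 and RPSA.

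Across these 4 tests, 11 members passed none: RPL17, RPL21, RPL28, RPL29, RPL32, RPL36A, RPLP2, RPS10, RPS24, RPS29 and RPS9. The same count was not made over all genes, so it is no result about the family. Several of these 11 are at the low end of the range. The slope with the no-feature share was steeper in members with more reads (r = -0.48 between slope and log2 mean CPM). That r is over the 67 members, which are not independent. Of the rows under a gene number, RPS15A, RPS3A and RPL7A fell with the no-feature share (-0.16 ± 0.026, -0.10 ± 0.031 and -0.13 ± 0.022, edgeR adjusted p = 7.88e-06, 0.00637 and 1.47e-05). RPL7A also rose with the score (0.092 ± 0.026, edgeR adjusted p = 0.00674).

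Genes that share the TOP motif or serve translation were tested in the same fits. The shares over all genes apply to this and the following lists. With the no-feature share 24.7% fell and 20% rose, and with the non-unique share 12.7% rose and 10.1% fell. With the score 16.4% rose and 15.3% fell, and in set B 6.71% were higher and 5.67% lower. Of 19 translation factors and other TOP mRNAs tested, 16 fell with the no-feature share and 1 rose. Those that fell were led by EIF3D (-0.16 ± 0.021), EIF3L and EEF1A1 (the factor that brings aminoacyl-tRNA to the ribosome, -0.14 ± 0.039), and the riser was PABPC1, the poly(A)-binding protein (0.17 ± 0.028). With the non-unique share 7 rose, among them TPT1 (0.10), and 1 fell, again PABPC1 (-0.16). With the score 9 rose and 0 fell, led by GNB2L1 (the older symbol of the 40S scaffold RACK1, 0.20 ± 0.026), EEF1A1 (0.18) and EEF1G (0.16). With set B, 4 were higher: GNB2L1 (0.27), EEF1A1 (0.24), HNRNPA1 (0.22) and EEF1G (0.20). The summed level of this list followed that of the members with r = 0.94 over the 32 libraries (0.92 in set A, 0.93 in set B), given as a description of lists that share libraries and scaling.

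Of 8 ribosomal protein genes outside the symbol rule that were tested, 6 fell with the no-feature share, among them RPS27L (-0.16) and RPL36AL (-0.15), paralogs of RPS27 and RPL36A. RPL22L1, the paralog of RPL22, was higher in set B (0.43, edgeR adjusted p = 0.00223) and rose with the score (0.26). By title set 1 of the 8 passed, with the score 3 rose, and with the non-unique share 5 rose.

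Ribosome assembly factors fell with the no-feature share in 19 of 25 tested, led by NOP10 (-0.29), a subunit of the pseudouridylation complex, PES1 (-0.19) and NHP2 (-0.18), while DKC1 (0.13) and MDN1 (0.05) rose. With the non-unique share 11 rose and 1 fell. With the score 3 rose (GNL3, LTV1 and NMD3) and 1 fell (MDN1), and with set B 2 were higher (GNL3, 0.21, and LTV1, 0.20). The 3 and 2 of 25 lie near the shares over all genes (16.4% and 6.71%), so they are no result about the list. Of 11 genes for transcription of ribosomal DNA, 6 fell with the no-feature share, led by MYCN (-0.19), and 1 (UBTF) rose with the non-unique share. With the score 6 rose, led by MYC (0.42 ± 0.052) and MYCN (0.31 ± 0.048), the growth regulators that activate ribosomal genes. With set B MYC (0.75 ± 0.11) and MYCN (0.39) were higher.

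Genes of mTOR signalling to TOP mRNAs went both ways. Of 14 tested, 4 fell with the no-feature share, RHEB, the activator of mTOR, most steeply (-0.17), and 1 rose, the translation repressor EIF4EBP2 (0.16). With the non-unique share 3 rose and 1 fell. With the score 4 fell, led by LARP1 (-0.12), RPTOR (-0.11) and TSC1 (-0.078), and EIF4EBP1 rose (0.33). By title set, the same LARP1, RPTOR and TSC1 were lower in set B (-0.17, -0.19 and -0.14) and EIF4EBP1 was higher (0.59). The summed level of this list had r = -0.60 with that of the members over all libraries, -0.06 within set A and -0.64 within set B.

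For contrast, 2 lists of genes whose proteins work in mitochondria were set beside the members. Of 72 mitochondrial ribosomal protein genes 65 fell and 0 rose with the no-feature share, led by MRPL36 (-0.29), MRPS17 (-0.27) and MRPS33 (-0.22), and of 61 nuclear genes of oxidative phosphorylation 56 fell and 0 rose, led by NDUFAB1 (-0.27), NDUFB6 (-0.26) and ATP5G1 (-0.24). Their median slopes were -0.16 and -0.18, against -0.11 for the cytosolic members. With the non-unique share 52 and 50 of them rose. By title set 0 of 72 and 0 of 61 were higher in set B, and 2 of the latter were lower (NDUFB8 and NDUFB9). With the score 3 mitochondrial ribosomal protein genes rose and 1 fell, and 4 oxidative phosphorylation genes rose and 2 fell. The fall with the no-feature share was shared by these lists; no difference between lists was tested.

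Some markers of other cells moved with the score, and fewer with the title set. Of 6 fibroblast and mural cell markers, 5 rose with the score (COL1A1, 1.07; COL3A1, 0.95; COL1A2, 0.90) and 1 was higher in set B. Their summed level ran from 78.0 to 512 CPM in set A and from 125 to 432 CPM in set B. Of 5 endothelial markers 3 rose with the score, with sums of 169 to 259 CPM in set A and 175 to 388 in set B. Of 8 hippocampal neuron markers 3 fell with the score and 2 were lower in set B (SLC17A7 and CAMK2A), with sums of 2228 to 5145 CPM in set A and 2289 to 4563 in set B. Of 6 oligodendrocyte markers 2 fell with the score, of 6 astrocyte markers 2 fell, and of 5 microglial markers 2 rose (C1QA and C1QB) and 2 fell (CSF1R and CX3CR1). By title set, C1QA (0.48) and C1QB (0.42) were higher in set B, and 0 oligodendrocyte, astrocyte and endothelial markers passed in edgeR (0, 3 and 3 of them at an unadjusted p under 0.05). Of 6 striatal and thalamic markers 2 were higher in set B (DRD2 and ADORA2A), and 1 rose and 1 fell with the score. Sums over the 6 were 59.7 to 106 CPM in set A (median 75.3) and 58.2 to 386 in set B (median 72.2). Choroid plexus markers, of which 0 passed by title set or score, summed to 21.8 to 58.1 CPM in set A and 19.6 to 432 in set B. Their median sums were 28.2 and 23.1 CPM. With the no-feature share NEUROD2, of the hippocampal neuron list, fell, and SLC1A2 (astrocytes), CX3CR1 and CSF1R (microglia), FLT1 (endothelium), TCF7L2 (thalamus) and 1 choroid plexus gene rose. With the non-unique share TCF7L2 and 1 choroid plexus gene fell. No marker found in the table was at 0 in every library, and the part of these cells in the members' differences was not tested.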

How the data were processed

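The authors deposited a table of raw read counts per gene for 32 libraries. STAR and HTSeq are named in the submitters' processing notes, without versions; the sources used here give neither genome build nor strand setting. Of 33999 rows, 5 count reads outside genes. They were used for the 2 shares and kept out of library sizes and tests. Counts were scaled by TMM and tested by quasi-likelihood in edgeR 4.0.16 (R 4.3.3) after filterByExpr (minimum count 10, total 15, proportion 0.7), with p-values adjusted over all 19959 genes (23977 by title set) and a threshold of 0.05. SE is the size of the log2 change over the square root of F. Log2 CPM used a prior count of 2. The 2 libraries of title set C enter the fit of sets only for the spread. No 2 libraries were alike within counting noise (chi-square per degree of freedom at least 4.34 over 496 pairs). Scripts were tested on simulated data. Alternatives were DESeq2 1.42.0, limma 3.58.1, other scalings and filters, further covariates, subsets and leaving out each library. The members, lists and tests were chosen with earlier results of these data known. Named genes are the 5 highest and lowest in level and spread ratio, the 5 largest called effects per test, the stalk proteins and RPSA, and up to 3 called genes per other list and test. Some genes that this rule names are not reported here, and 1 member is left out of 2 figures, but all stay in the counts. Gene names follow the table and the RefSeq table of mChlSab1.0.hap1. No sequence or coordinate was used.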

Additional observations from a re-analysis of the deposited data

How the results depend on the processing

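Of 1408 values of named members under alternatives, 1344 kept their direction and side of the threshold, 58 lost and 6 gained their call, and 0 reversed. The count of members higher in title set B (5) went to 1 with the title number added and to 1 among numbers below 20000, and that of members lower (0) to 1 with the number added. It was 5 to 8 with a library left out, 8 without library 18. The 48 members that fell with the no-feature share became 24 with totals alone, 19 with both shares, 27 in set A and 23 in set B. The 39 that rose with the non-unique share became 12 with totals, 0 with both shares, 0 in set A, 15 in set B and 18 without the 2 farthest libraries, and 20 (without library 25) to 43 with a library left out. The 20 that rose with the score became 2 with the title set added, 0 in either set alone and 8 without the 2 farthest libraries, where 2 fell instead of 0, and 15 to 26 with a library left out. Subsets hold fewer libraries, and for the other changes the cause was not tested. RLE scaling, DESeq2, limma, both filters and scaling without the member rows left every count of members within 1.5 times. Members below 10 CPM are limited by depth. No paired analysis was possible because the replicate numbers only name libraries of a single group.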
